A study of Mus musculus with 16 samples.

Results

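In the small intestine of mouse neonates, 304 regions had lower H3K4me1 and lower H3K27ac when the corepressor NCoR1 was deleted. They were chosen from 2774 regions where wild-type (WT) H3K4me1 exceeded that of the deletion (KO): a member had a WT-higher H3K27ac region within 1 kb and no KO-higher H3K27ac region within 1 kb. Members made up 10.96% of the WT-higher H3K4me1 regions. The H3K4me1 list held no region on chromosome 18, so no member could be found there. Of the others, 108 lay within 1 kb of a KO-higher H3K27ac region and 2362 had no listed H3K27ac region within 1 kb, and no region had both. On the H3K27ac side, 292 of 2510 WT-higher regions (11.6%) were the partners of members.

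The cells were intestinal epithelial cells from the jejunum of C57BL/6 neonates at postnatal day 12. The labels call the WT genotype F/FUN and the intestinal NCoR1 deletion ΔIECUN. They do not spell out the part UN that both names share, nor the driver of the deletion, and they do not say whether animals were pooled. ChIP-seq of 6 histone marks gave 1 library for each mark and genotype, so there was no replicate error to judge a difference by, and each value describes this pair of libraries. Less of a mark in each cell and fewer cells with the mark cannot be told apart in such bulk material.

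H3K4me1 is laid down over enhancers, and H3K27ac marks those enhancers and promoters that are active. NCoR1 is a corepressor that bridges nuclear receptors and other transcription factors to the histone deacetylase HDAC3, and its removal is best known for raising histone acetylation. The members are the opposite case, in which an enhancer mark and an acetylation mark were both lower in the libraries without NCoR1.

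The sequences at the H3K4me1 summits show what these regions look like. Shown are the central 201 bases of the member with the highest H3K27ac fold at each of 7 genes that several parts of the naming rule select (2 more, in a repeated stretch described below, are not shown), then at 3 genes with lower RNA, Gatm, Eya4 and Tmprss6, which were chosen after their values were seen. The strand is the plus strand of mm9, read 5′ to 3′ from the reference genome. Capitals mark any of 21 searched transcription factor words, most of which occurred nowhere in these windows. The gene is the authors' nearest gene and need not contain the region. By GENCODE annotation the windows named for C030029H02Rik, Myt1l and Gatm were intergenic. Those of Pip4k2a, Rbfox3, Thsd4, Eya4 and Tmprss6 lay in introns of these genes, that of Elac2 in an intron of Arhgap44, and that of Oxr1 in a coding exon of Zfpm2.
C030029H02Rik, chr7:143252484-143252684: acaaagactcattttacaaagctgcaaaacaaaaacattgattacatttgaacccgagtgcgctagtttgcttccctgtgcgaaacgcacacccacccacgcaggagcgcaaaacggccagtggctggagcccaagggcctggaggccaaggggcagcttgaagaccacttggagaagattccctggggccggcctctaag
Myt1l, chr12:30033620-30033820: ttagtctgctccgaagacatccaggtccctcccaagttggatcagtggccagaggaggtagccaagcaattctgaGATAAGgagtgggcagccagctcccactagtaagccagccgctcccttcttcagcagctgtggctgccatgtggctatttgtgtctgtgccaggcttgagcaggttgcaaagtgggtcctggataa
Elac2, chr11:64846662-64846862: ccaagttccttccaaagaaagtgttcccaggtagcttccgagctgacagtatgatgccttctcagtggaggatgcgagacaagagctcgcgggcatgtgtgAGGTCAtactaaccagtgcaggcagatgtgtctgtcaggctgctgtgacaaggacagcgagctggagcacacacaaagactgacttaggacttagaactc
Oxr1, chr15:40927568-40927768: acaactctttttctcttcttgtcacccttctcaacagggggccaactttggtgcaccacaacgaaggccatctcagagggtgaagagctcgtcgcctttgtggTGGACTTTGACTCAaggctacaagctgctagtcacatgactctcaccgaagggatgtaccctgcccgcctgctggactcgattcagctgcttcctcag
Pip4k2a, chr2:18856558-18856758: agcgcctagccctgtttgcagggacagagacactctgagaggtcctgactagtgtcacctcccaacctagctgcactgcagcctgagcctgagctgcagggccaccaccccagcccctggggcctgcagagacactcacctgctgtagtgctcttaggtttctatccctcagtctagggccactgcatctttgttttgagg
Rbfox3, chr11:118769802-118770002: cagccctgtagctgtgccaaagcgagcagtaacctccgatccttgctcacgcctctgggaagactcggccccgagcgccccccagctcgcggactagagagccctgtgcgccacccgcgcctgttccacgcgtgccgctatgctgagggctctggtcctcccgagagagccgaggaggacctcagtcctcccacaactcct
Thsd4, chr9:60329306-60329506: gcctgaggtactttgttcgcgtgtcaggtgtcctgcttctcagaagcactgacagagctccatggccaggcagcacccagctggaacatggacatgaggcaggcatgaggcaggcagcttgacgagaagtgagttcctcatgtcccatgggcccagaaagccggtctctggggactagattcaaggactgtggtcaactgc
Gatm, chr2:122402231-122402431: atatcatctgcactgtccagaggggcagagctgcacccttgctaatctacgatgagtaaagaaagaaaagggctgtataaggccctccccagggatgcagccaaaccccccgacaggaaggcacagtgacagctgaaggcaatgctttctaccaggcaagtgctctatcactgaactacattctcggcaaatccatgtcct
Eya4, chr10:23069116-23069316: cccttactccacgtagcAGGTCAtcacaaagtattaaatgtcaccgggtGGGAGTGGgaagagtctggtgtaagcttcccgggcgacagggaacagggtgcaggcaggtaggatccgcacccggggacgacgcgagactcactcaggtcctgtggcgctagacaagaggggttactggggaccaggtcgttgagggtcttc
Tmprss6, chr15:78298622-78298822: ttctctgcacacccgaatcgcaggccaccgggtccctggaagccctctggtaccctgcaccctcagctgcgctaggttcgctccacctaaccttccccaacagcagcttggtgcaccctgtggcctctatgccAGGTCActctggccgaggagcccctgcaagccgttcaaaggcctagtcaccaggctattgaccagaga

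No single word was shared by these 10 windows. The nuclear receptor half-site AGGTCA was in those of Elac2, Eya4 and Tmprss6, the AP-1 word TGANTCA in that of Oxr1, where it sits beside the HNF4 word CAAAGTCCA, and the GATA word GATAAG in that of Myt1l. The window of Eya4 also held the KLF and SP word GGGNGTGG. In the windows of C030029H02Rik, Pip4k2a, Rbfox3, Thsd4 and Gatm, none of the 21 words was found.

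One stretch had to be set apart before the results. In 300 kb of chromosome 17 that hold Tmem181a, Tmem181b-ps and Dynlt1b, WT-higher regions of all 6 marks lay together, among them 55 of H3K4me1, 33 of H3K27ac and 32 of the 395 of H3K27me3 (8.10%). The 4 KO-higher lists (H3K27ac, H3K9ac, H3K4me3 and H3K9me3) had no region there. The stretch held 31 of the members. In windows of 150 bp on either side of their summits, a median of 78.1% of the 32-base words occurred more than once in the genome, against a median of 0 for the members outside. For 19 members outside, repeated words were the majority. A separate UGT1A contig in the authors' reference held 17 H3K4me1 regions and 1 member. Results are given with and without these 32 members, which leaves 272.

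**Figure D1:**
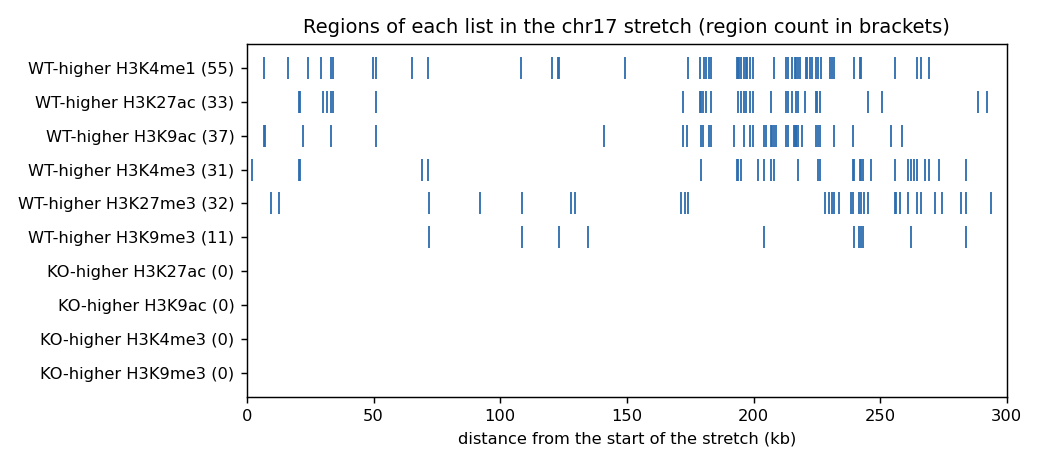
Summits of the regions of each deposited list along the 300 kb stretch of chromosome 17, against distance from its start in kb, 1 row for each list with its region count in brackets. WT-higher regions of all 6 marks are present, from 11 for H3K9me3 to 55 for H3K4me1, and the 4 KO-higher rows are empty.

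The size of the difference chose the members and is given as a description. At the H3K4me1 summits the WT pileup, the number of tags that cover the base after scaling to the smaller library, had a median of 46 and ranged from 15 to 164. The KO background that the authors' fold implies had a median of 15.4 tags (2.35 to 76.0). It is an upper limit of the KO level, since MACS takes the highest of several local estimates. The H3K4me1 fold thus had a median of 2.89 (1.49 to 8.16). For H3K27ac, the strongest partner had a median of 38.7 tags in WT (13.9 to 203) against a KO background of 11.3 (2.60 to 88.0), and a fold of 3.33 (1.43 to 8.0). Such a limit does not show how much of a mark was left in KO. The lowest backgrounds are shared values, 2.35 at 6 members in H3K4me1 and 2.60 at 10 members in H3K27ac, so the folds there rest on a common floor.

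**Figure D2:**
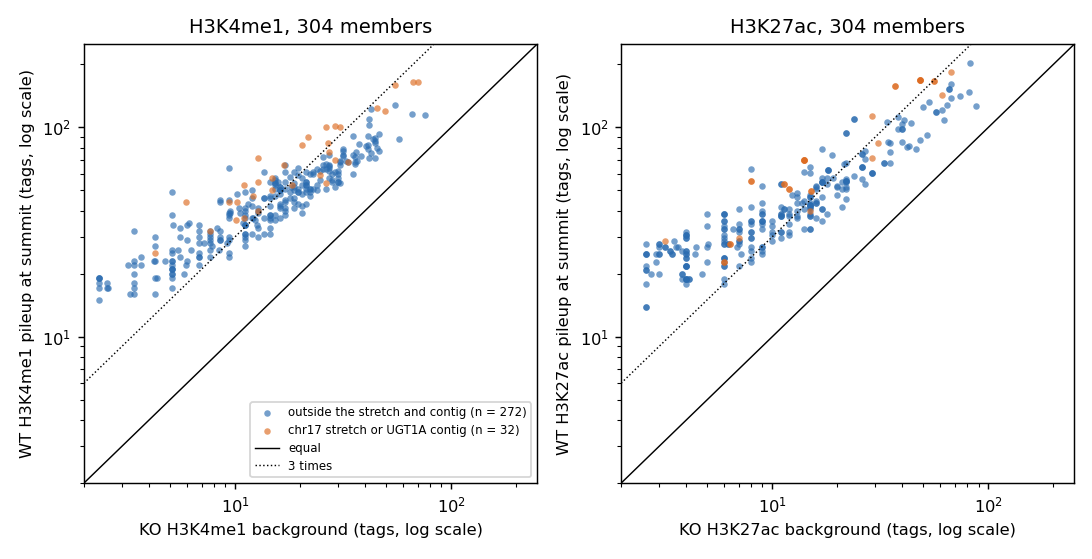
WT pileup at the summit against the KO background implied by the fold, in scaled tags on log axes, for H3K4me1 (left) and the strongest H3K27ac partner (right), 1 point for each of 304 members. All points lie above the line of equality because the rule requires it; the 32 members of the chromosome 17 stretch and the contig lie among the others.

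The folds of both marks entered the rule and are described only. Spearman's rank correlation between the H3K4me1 fold and the H3K27ac fold was 0.51 over the 304 members and 0.51 over the 272 outside the stretch and contig. Partners are shared between neighbouring members, so the points are not independent. Low WT tags also went with high folds in H3K4me1 (rank correlation −0.56).

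Outside the stretch, the highest H3K4me1 folds lay at distal regions of a few genes. A member 6936 bp from Mir6349, a microRNA gene, had the highest, 8.16, from 49 tags in WT against 5.13 in KO. The member of Pip4k2a, a lipid kinase that phosphorylates phosphatidylinositol 5-phosphate, at chr2:18860829-18861034 had a fold of 7.47, from 32 tags against 3.42. That of Oxr1, which protects against oxidative damage, had 6.37, from 38 tags against 5.13, and lay 351289 bp from the start of that gene. Thsd4, which promotes microfibril assembly in the extracellular matrix, had a member with a fold of 6.25, from 64 tags against 9.40. Members of Elac2, Frmd7 and Stxbp6 each had a fold of 5.97, from the same 19 tags against the common floor of 2.35.

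For H3K27ac the highest fold, 8.0, was at the C030029H02Rik member shown above, from 27.8 tags in WT against the floor of 2.60. Members of Myt1l reached 7.20 (27.8 against 3), 3100003L05Rik reached 7.17, and Elac2 also reached 7.17 (63.5 against 8). Hhip, which binds and restrains hedgehog ligands, had an H3K27ac fold of 6.62 at its member. Tmem181b-ps reached 7.08, but within the repeated stretch.

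The peaks of the marks mostly coincided. Of the 304 members, 200 (65.8%) shared bases with a partner. The median distance between the H3K4me1 summit and the nearest H3K27ac summit was 71.5 bp, and 187 members (61.5%) had them within 150 bp. A second set of 89 members (29.3%) had summits more than 500 bp apart, and 28 (9.21%) lay between. The H3K27ac summit was on the side of the gene's start in 165 of the members with a gene start and unequal summits (54.8%). Where an H3K27ac region had several members (83 partners), their summits lay on both sides of its summit in 43 (51.8%). Members that share bases with the region are counted here too.

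**Figure D3:**
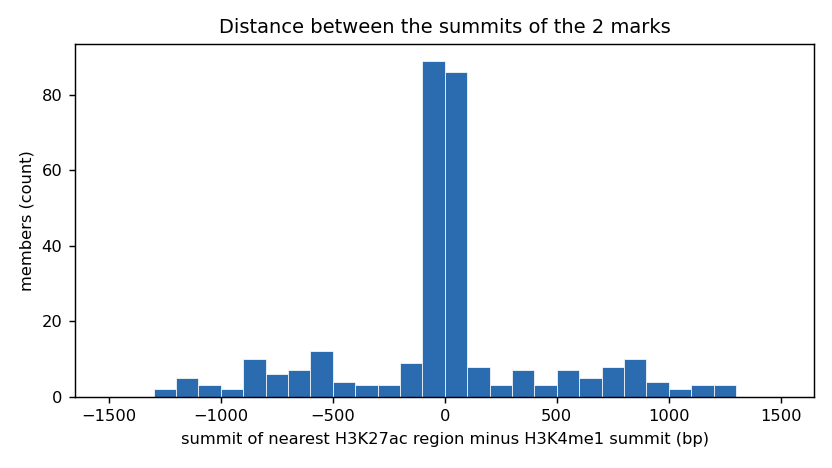
Distance in bp from the H3K4me1 summit to the summit of the nearest WT-higher H3K27ac region, in bins of 100 bp, for 304 members. Most members fall within 150 bp of 0, with 89 beyond 500 bp on either side; the 1 kb limit of the rule bounds the spread.

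Just inside the 1 kb limit were members of 1810062G17Rik at 993 bp (H3K4me1 fold 4.61, H3K27ac fold 3.72), 9030025P20Rik at 992 bp (3.115 and 2.28) and Eya4 at 991 bp (2.84 and 5.16). Just outside were regions of Schip1 at 1036 bp (3.27 and 4.47), Psmg4 at 1046 bp (4.74 and 2.32) and Nap1l4 at 1054 bp (4.23 and 3.53).

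Members were mostly distal, as were the other WT-higher H3K4me1 regions. Only 22 of 303 lay within 1 kb of the start of their gene (7.26%, 95% Wilson interval 4.84 to 10.7). This was close to the 8.11% of other WT-higher H3K4me1 regions (7.09 to 9.26). Within 2.5 kb lay 35 members (11.6%) and 15.6% of the other regions. Introns held 146 members (48.0%) and 48.9% of the other regions, and intergenic sequence 124 members (40.8%) and 35.9% of the others. Exons held 2.30% of members and 6.60% of the other regions, from 7 and 163 regions. The median distance to a start was 21403 bp, against 20351 bp for other H3K4me1 regions. More than 100 kb away were 50 members (16.5%) and 13.6% of the other regions. All such intervals cover counting error only, and neighbouring regions are not independent.

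The partners were a distal subset of the H3K27ac losses, which the rule itself favours. Each partner lies within 1 kb of a WT-higher H3K4me1 region, and only 8.02% of all such regions were at promoters by the authors' starts. Measured from GENCODE starts and outside the stretch and contig, 25 of 266 partners were at promoters (9.40%, 6.45 to 13.5), against 946 of 2208 other WT-higher H3K27ac regions (42.8%, 40.8 to 44.9). These partners had a median fold of 3.09 from 38.7 tags, the other regions 2.48 from 57.6 tags. Among regions more than 2.5 kb from a start the values were nearer, with a fold of 3.16 for 227 partners and 2.89 for 1160 others.

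Other active marks fell at a minority of members. A WT-higher H3K9ac region lay within 1 kb of 75 members (24.7%, 20.2 to 29.8), against 4.51% of all WT-higher H3K4me1 regions. Outside the stretch and contig it was 50 of 272 (18.4%, 14.2 to 23.4). Among H3K4me1 regions with no listed H3K27ac the share was 2.12% (1.61 to 2.78), and beside KO-higher H3K27ac it was 0 of 108 (interval up to 3.43%). H3K9ac is an acetyl mark of active promoters and enhancers, and it was lower near a larger share of members than of the other H3K4me1 regions. Seen from the H3K27ac list, the members' partners were close to the rest. Among WT-higher H3K27ac regions outside the stretch and contig, H3K9ac lay beside 19.9% of partners (15.6 to 25.1) and 21.8% of the others (20.1 to 23.6). More than 2.5 kb from a start these shares were 16.7% (12.4 to 22.1) and 10.5% (8.88 to 12.4).

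H3K4me3, the mark of active promoters, was less often involved. A WT-higher H3K4me3 region lay within 1 kb of 37 members (12.2%, 8.96 to 16.3), against 4.22% of all WT-higher H3K4me1 regions, and of 23 members outside the stretch and contig (8.46%, 5.70 to 12.4). Seen from the H3K27ac list outside the stretch and contig, the order was the opposite, with H3K4me3 beside 10.15% of partners (7.07 to 14.4) and 19.9% of the others (18.3 to 21.6). More than 2.5 kb from a start these were 4.85% (2.73 to 8.47) and 6.38% (5.11 to 7.93). Both H3K9ac and H3K4me3 were near 28 members, H3K9ac alone near 47, H3K4me3 alone near 9 and neither near 220. Outside the stretch and contig the counts were 16, 34, 7 and 215.

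For the lists of the other direction and of the repressive marks, the counts were low in the members and in the background. No KO-higher H3K27me3 list could be used, so a gain of that mark was not examined. No member had a KO-higher H3K9ac region within 1 kb (background 1.98%, interval of the members up to 1.25) or a KO-higher H3K4me3 region (0.324%). Beside KO-higher H3K27ac, 45 of 108 H3K4me1 regions had KO-higher H3K9ac (41.7%, 32.8 to 51.1). The rule keeps these 108 regions out of the members, but they are in the background. Among regions with no listed H3K27ac, KO-higher H3K9ac lay near 10 of 2362 (0.423%), which is inside the members' interval. WT-higher H3K27me3 lay near 1 member (background 0.973%), which was on the contig, and WT-higher H3K9me3 near 0 (0.433%). KO-higher H3K9me3, a mark of heterochromatin, lay near 1 member (0.329%, background 0.108%), which was 409651 bp from Lipi. That member had 34 H3K4me1 tags in WT against 5.98 in KO.

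**Figure D4:**
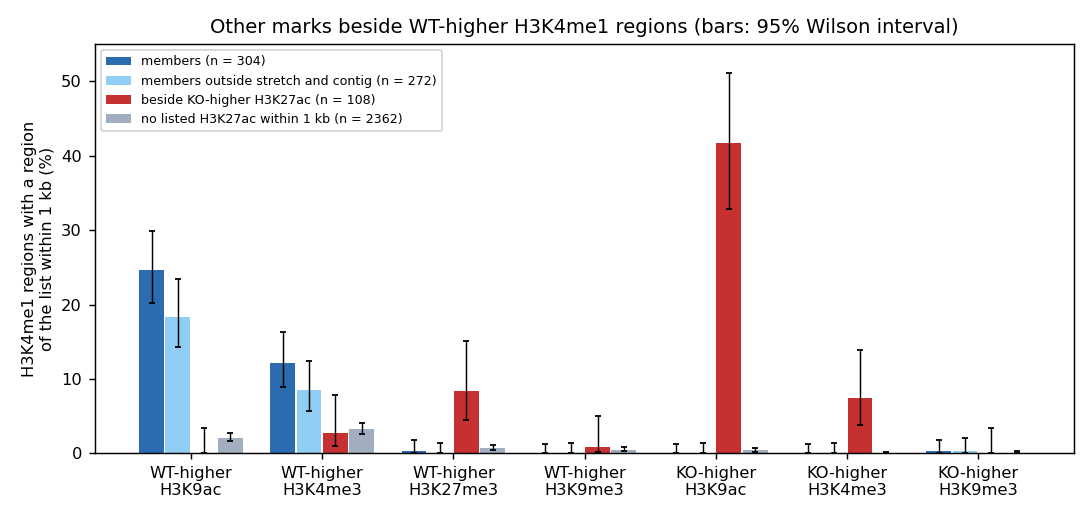
Percent of WT-higher H3K4me1 regions with a region of another list within 1 kb, for all members, members outside the stretch and contig, regions beside KO-higher H3K27ac and regions with no listed H3K27ac; error bars are 95% Wilson intervals of counting error. WT-higher H3K9ac is highest at members (24.7%, or 18.4% outside), and KO-higher H3K9ac is at 41.7% beside KO-higher H3K27ac and at 0 of 304 members.

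All 4 active marks had WT-higher regions together at 28 members, 16 of them outside the stretch and contig. Examples lay near starts, in introns and in intergenic sequence. Rbfox3, whose product NeuN is a splicing factor of neurons, had 3 members with WT-higher H3K9ac and H3K4me3 also within 1 kb, at 230, 1031 and 12272 bp from a start. Kcnh1, a potassium channel gene, had 1 at 1330 bp, with 23 H3K4me1 tags in WT against 5.13 in KO and 44.7 H3K27ac tags against 16. Eya4, a transcriptional coactivator with phosphatase activity, had 1 at 519 bp, with 28 H3K4me1 tags against 9.22 and 24.8 H3K27ac tags against 4. The C030029H02Rik member with the highest H3K27ac fold, intergenic and 207373 bp from the start, also had both marks near.

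Members grouped into clusters at a few loci. Joined at gaps of up to 12500 bp they formed 201 clusters, of which 152 held 1 member, 31 held 2 and 18 held 3 or more. The largest, with 27 members in 48080 bp, was in the chromosome 17 stretch. The next, chr7:143178439-143216722, held 10 members with 14 WT-higher H3K27ac regions in 38284 bp of intergenic sequence. Its nearest genes, C030029H02Rik and the proliferation gene Mki67, started 243464 to 272950 bp away. Its H3K4me1 pileups ran from 20 to 61 tags in WT and its folds from 2.56 to 5.48. Rbfox3 had 8 members, 5 of them in one cluster of 19858 bp. Of these 8 members, 3 were left where shared bases were required, 2 at a fold of at least 3 and 0 at a −log10 q of at least 5 in both lists. Pip4k2a, Lmo1 and Arhgap23 had clusters of 4.

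Within a locus the members differed in their tags. At Rbfox3 the 8 members had 41, 43, 31, 21, 16, 55, 22 and 34 H3K4me1 tags in WT along the chromosome, against 10.4, 16.2, 14.5, 5.13, 4.27, 14.5, 6.83 and 11.1 in KO. The 8 folds ran from 2.06 to 3.67. At Pip4k2a the 4 members, within 4622 bp of an intron 58816 to 63179 bp from the start, had 24, 26, 31 and 32 H3K4me1 tags against 7.69, 5.13, 7.68 and 3.42. Their H3K27ac partners had 21.8 to 35.7 tags in WT against 4 to 9 in KO. WT levels at Pip4k2a were close to each other. The lowest KO background goes with the highest fold there by construction, because it is computed from the fold.

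Myt1l, which encodes a zinc finger factor of neurons, had 6 members at 3 intergenic places 179055 to 270724 bp from its start. The pair nearest to the gene had 45 and 19 H3K4me1 tags in WT against 8.54 and 4.34 in KO, and their strongest partner had 27.8 H3K27ac tags against 3. The middle pair had 20 and 50 H3K4me1 tags against 5.13 and 23.9, and the far pair 57 and 61 against 15.4 and 17.1. Thsd4 had members of very different strength. The one in an intron 29443 bp from the start had 64 H3K4me1 tags against 9.40, while one 93235 bp away had 122 against 42.7, and 3 others 5856 to 7310 bp away had 44 to 55 against 13.7 to 29.9. At Arhgap23, 4 members 11031 to 13684 bp from the start had 34 to 52 tags against 12.6 to 19.6, and folds of 2.52 to 3.03.

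The authors' deposited table gives the RNA log2 fold change of the nearest gene, read here as KO over WT, with its FDR. It covers 1549 genes near H3K4me1 regions, of which 9.62% were lower and 4.97% higher in KO at FDR under 0.05. Members had 188 nearest genes, 146 with RNA values. Of these, 30 were lower (20.5%, 14.8 to 27.8) and 0 higher (interval up to 2.56%), with a median log2 fold change of −0.18, against −0.04 over all genes of the authors' deposited table. Without the stretch and contig it was 30 of 143 in the authors' deposited table. RNA was below 0 for 99 of the 146 genes (67.8%), against 54.4% over the authors' deposited table. The genes of H3K4me1 regions beside KO-higher H3K27ac went the other way in the authors' deposited table, with 34 of 65 higher, 1 lower and a median of 0.30.

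Lower RNA was also frequent at genes near lower H3K27ac that had no member. Here a WT-higher H3K27ac region was assigned to the nearest GENCODE start within 50 kb. In the authors' deposited table, 35 of 178 genes with such a region and no member were lower (19.7%, 14.5 to 26.1). The 20.5% of genes with members rests on the authors' nearest gene, with no distance limit. By the GENCODE assignment within 50 kb, 27 of 96 genes with members were lower in the authors' deposited table (28.1%). Genes with neither a member nor such an H3K27ac region were lower in 84 of 1225 cases (6.86%, 5.57 to 8.41). By distance, the share in the authors' deposited table was highest within 2.5 kb and lowest beyond 100 kb, from few genes in each. With the nearest member within 2.5 kb of the start, 7 of 22 genes were lower (31.8%, 16.4 to 52.7). Between 2.5 and 50 kb it was 19 of 89 (21.3%) and between 50 and 100 kb 3 of 15 (20%, 7.05 to 45.2). Beyond 100 kb it was 1 of 20 (5.0%, 0.888 to 23.6). Genes with 1 member were lower in 21 of 110 cases (19.1%) and genes with 2 or more in 9 of 36 (25%). These intervals overlap widely.

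**Figure D5:**
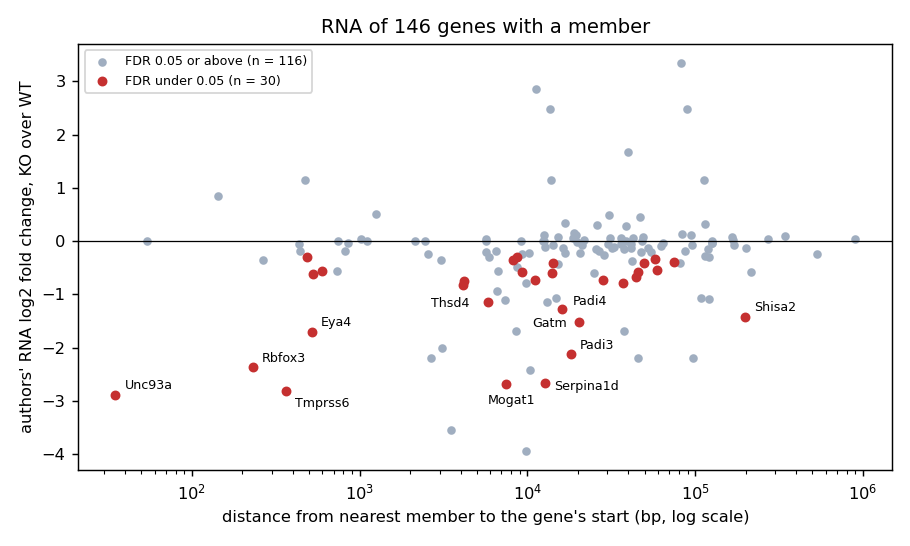
The authors' RNA log2 fold change, KO over WT, against the distance from the gene's start to its nearest member in bp on a log axis, for 146 genes; red points passed FDR under 0.05 and those below −1 are named. All 30 red points lie below 0, and 29 of them have a member within 100 kb.

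RNA changes of genes among the 30 lower ones are given on the log2 scale. Tmprss6, a membrane serine protease known in liver for limiting hepcidin, fell by 2.81 (FDR 2.24e-21 in the authors' deposited table). Its member lay 364 bp from the start, with 26 H3K4me1 tags in WT against 5.42 in KO and 26.8 H3K27ac tags against 6.87. Gatm, the first enzyme of creatine synthesis, fell by 1.52 (FDR 2.12e-11 in the authors' deposited table). It had 3 members 20273 to 34787 bp from its start, with 15, 30 and 54 H3K4me1 tags in WT against 2.35, 5.56 and 15.4. Mogat1, which makes diacylglycerol from monoacylglycerol, fell by 2.68 (FDR 2.15e-11 in the authors' deposited table). Its member at 7426 bp had a higher KO background than those, with 77 H3K4me1 tags in WT against 31.6 and 92.3 H3K27ac tags against 52.0. Acadm, the medium-chain acyl-CoA dehydrogenase of fatty acid oxidation, fell by 0.29 (FDR 0.0111 in the authors' deposited table), with 29 H3K4me1 tags against 9.40.

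Rbfox3 fell by 2.37 (FDR 2.63e-14 in the authors' deposited table), and its 8 members, 230 to 70326 bp from a start, had H3K4me1 folds of 2.06 to 3.67. Eya4 fell by 1.70 (FDR 0.000524 in the authors' deposited table). Padi3 and Padi4, neighbouring genes for enzymes that convert arginine to citrulline in proteins, had log2 fold changes of −2.12 and −1.27 (FDR 1.18e-05 and 0.000196 in the authors' deposited table), each with 1 member, at 18167 and 16077 bp. Unc93a fell by 2.88 (FDR 0.00160 in the authors' deposited table). Its member lay 35 bp from the start, with modest folds of 1.86 for H3K4me1 (69 tags against 36.7) and 2.11 for H3K27ac (85.3 against 40). In its window 88.1% of the 32-base words were repeated in the genome, so the placement of tags there is uncertain.

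Jag2, a Notch ligand, fell by 0.75 (FDR 6.81e-05 in the authors' deposited table), with 69 H3K4me1 tags in WT against 32.5 in KO at 4179 bp. Thsd4 fell by 1.13 (FDR 4.87e-25 in the authors' deposited table). It had 5 members with H3K4me1 folds of 1.81 to 6.25. Shisa2, a relative of the Xenopus protein that retains Wnt and FGF receptors in the endoplasmic reticulum, fell by 1.42 (FDR 5.19e-24 in the authors' deposited table), but its member was 197413 bp away. Pip4k2a had a log2 fold change of −0.55 and Arhgap23, a GTPase-activating protein, one of −0.74 (FDR 0.000166 and 1.09e-05 in the authors' deposited table). Serpina1d, an alpha-1-antitrypsin, fell by 2.66 (FDR 9.02e-09 in the authors' deposited table), but the genes of this family are near-identical copies, so the assignment of reads among them is uncertain.

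The 30 lower genes had a median highest H3K27ac fold of 2.94 and H3K4me1 fold of 2.67, against 3.07 and 2.91 for the 116 genes that did not pass. The nearest member also lay closer to the lower genes, at a median of 11914.5 bp from the start against 23296.5 bp. Elac2, with some of the highest folds in both marks, had a log2 fold change of −0.21 (FDR 0.660 in the authors' deposited table). Its member lay 54243 bp from the start and 956 bp from its partner, and was lost at a limit of 500 bp. Ptprd, with an H3K4me1 fold of 5.88, had 0.03 (FDR 1 in the authors' deposited table), but its member was 901621 bp away. Pip4k2a and Thsd4, with H3K4me1 folds of 7.47 and 6.25, were among the lower genes.

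Genes of the chosen lists had a member about as often as all genes of the H3K4me1 list. The lists cover intestinal programmes, signalling pathways, and immune, stromal and developmental genes. Of 613 genes in 21 lists, 103 had a WT-higher H3K4me1 region and 10 of these (9.71%) had a member, near the 9.14% of all 2056 genes of the H3K4me1 list. Of the suckling enterocyte list of 40 genes, 6 had an H3K4me1 region and 2 a member: Amn, the partner of cubilin in vitamin uptake (H3K27ac fold 5.96, RNA −0.02), and Rab11a, a GTPase of recycling endosomes (3.09, RNA 0.07), with RNA as log2 fold change in the authors' deposited table. The Notch list had Jag2 and the PPAR list had Acadm. The Hippo list had Vgll4, a cofactor of TEAD factors (H3K27ac fold 3.09, RNA 0.07 in the authors' deposited table). Others were Thsd4, Mki67, Nfkb1 and Irx3, and 13 lists had none. The nearest member lay 4179 bp from the start at Jag2, 5856 bp at Thsd4 and 8677 bp at Acadm. It was farther at Amn (19702 bp), Irx3 (34546 bp), Vgll4 (42464 bp), Nfkb1 (86484 bp), Rab11a (165982 bp) and Mki67 (270535 bp). The list of LXR and FXR targets had H3K4me1 regions at 8 of 29 genes and no member. In RNA, 6 of its 7 genes with values were higher in the authors' deposited table.

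The cell type label could not be checked at these regions. None of the 12 enterocyte, 9 immune, 9 stromal, 7 secretory and 5 stem cell markers was the nearest gene of a member, and the lists hold differences between genotypes, not levels. The part of other cell types in the differences was not tested. Nor could the deletion be checked from the lists, which give called regions and no coverage. Ncor1 had no value in the authors' RNA column. No member lay at Ncor1, and 1 listed region of any mark, a KO-higher H3K27ac region, fell within it.

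Base composition and words of the members are set beside those of the other H3K4me1 regions, with no test. Median GC content of the windows, 150 bp on either side of the summit, was 54.5%, against 53.8% for the other H3K4me1 regions. Counting both strands, AGGTCA was in 60 of 303 windows (19.8%, 15.7 to 24.7) and in 22.0% of 2448 other windows. TGANTCA was in 9.24% and 9.40%, GATAAG in 7.59% and 8.74%, the CDX2 word TTTATNG in 8.25% and 8.99%, and GGGNGTGG in 12.2% (8.99 to 16.4) and 15.4%. The TEAD word ACATTCC was in 5.94% (3.79 to 9.19) and 4.08%. The following words had lower shares in members, each with the share of the other regions inside the members' interval. The ETS core AGGAAGT was in 5.94% (3.79 to 9.19) and 8.05%, the RUNX word TGTGGTT in 3.63% (2.04 to 6.38) and 6.13%, the TCF7L2 word ATCAAAG in 1.98% (0.911 to 4.25) and 3.72%, and the HNF4 word CAAAGTCCA in 0.660% (0.181 to 2.37) and 1.43%. The direct repeats of the half-site spaced by 1 or 4 bases, words that hold AGGTCA, were in 0 member windows (up to 1.25%) and in 3 and 0 of the others. A match or its lack describes only these letters in this window.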

How the data were processed

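ChIP libraries of 6 histone marks, 1 for each mark and genotype, were compared by the authors. The 4 input libraries were not analysed here. The submitters' processing notes name HOMER 3.12, MACS2 2.1.1, Bowtie2 2.2.9 and CASAVA 1.8.2, with mm9. By contrast, MACS 2.0.10.20130419 and 75 bp tags are recorded per the file headers, and 50 cycles per the labels' protocols. This was not resolved. Per the file headers, the control of each call was the opposite genotype, and the q cutoff was 0.05. After duplicates were removed, the H3K4me1 libraries held 27718038 (WT) and 32444815 (KO) tags and the H3K27ac libraries 32095696 and 31846932, per the file headers.

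The authors deposited for each region a pileup signal (tags over the summit, with the larger library scaled down). They also deposited the fold, a ratio of that pileup to the local background of the opposite genotype. Significance was deposited as −log10 p-value and −log10 q-value. The authors' table adds a log2 fold change of RNA and an FDR, an adjusted p-value. It holds 12 more columns that belong to no sample here and were not used. Its sign was read from HOMER's column naming, in which the first group is the baseline. Of 12 deposited lists, 2 repeat another list, so 10 were used.

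KO background was computed as (pileup + 1) / fold − 1, with the pseudocount of 1 that MACS adds. It came out whole, within 0.02 tags, for 249 of 304 members in H3K4me1 and 246 in H3K27ac. Folds and tags of H3K27ac are those of the partner with the highest fold, distances those of the nearest. Nearest genes and distances are the authors', except where GENCODE starts are named. Motif windows reached 150 bp to either side of the H3K4me1 summit, and the printed part is the central 201 bases. Sequences and repeated words came from the reference genome of the same build (pysam 0.24.0, samtools 1.23.1). The selection was tested on simulated regions. With no replicates, no test between genotypes was made. Alternatives covered the distance, the significance and fold limits, the gene assignment, the windows and the doubted stretch.

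The members, gene lists and words were chosen with earlier results of these data known. Genes were named by rule: the 10 members with the highest fold in each mark, the 10 genes with the most members, the 10 lowest and 5 highest RNA values past FDR 0.05, up to 4 genes for each gene list, and 5 members with all 4 active marks lower. Others were named after their values were seen. A gene of the lists is not reported here.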

Additional observations from a re-analysis of the deposited data

How the results depend on the processing

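The number of members followed the rule. It was 200 where shared bases were required, 110 at a -log10 q of at least 5 and 109 at a fold of at least 3 in both lists, and stayed within 1.5 times of 304 under the other distances (254 to 454) and without the chromosome 17 stretch and the contig (272). That alternative, 1 member for each cluster and the 100 kb limit were chosen after seeing the data. The share of members with WT-higher H3K9ac was 13% by shared bases, 32.9% within 5 kb, 15.1% at a -log10 q of at least 5 in H3K9ac, 18.4% without the stretch and contig and 15.4% with 1 member for each cluster. For H3K4me3 these were 5.92%, 19.7%, 8.55%, 8.46% and 8.96%, and 8.21% for members more than 2.5 kb from a start. The share of genes with lower RNA was 28.1% by the nearest GENCODE start within 50 kb and 15.8 to 23.0% otherwise, and no setting gave a higher gene. Promoters held 11.6% at 2.5 kb. AGGTCA was in 15.2% of whole regions and GATAAG in 4.95% of windows at the H3K27ac summit. Genes of the lists with a member numbered 5 at a -log10 q of at least 5 and 4 at a fold of at least 3. Of the 38 named genes, 22 had a member at a -log10 q of at least 5 in both lists. Among those without were Rbfox3, Tmprss6, Mogat1, Eya4, Jag2, Unc93a, Shisa2, Padi4, Serpina1d and Acadm. At shared bases 32 had one, and at a fold of at least 3, 24. The causes were not tested. No paired analysis was possible because each mark and genotype has 1 library, and for the same reason no replicate could be left out. Members with 15 to 20 WT tags are the least certain.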

Other observations

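Lower RNA was also listed for members' genes outside the naming rule, chosen after their values were seen. In the authors' deposited table Enpp7, the alkaline sphingomyelinase of the brush border, had an RNA log2 fold change of −0.41 (FDR 0.000482) with a member 14231 bp from its start. Prkar2b, a regulatory subunit of protein kinase A, had −0.78 (FDR 2.72e-08 in the same authors' deposited table) and 2 members with H3K4me1 folds up to 4.72. Tfcp2l1, a transcription factor of renal and pluripotent cells, had −0.68 (FDR 3.72e-06), and Plxna1, a semaphorin receptor, −0.58 (FDR 1.77e-08), both in the authors' deposited table.

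Only 1 gene, 4732490B19Rik, had both a member and an H3K4me1 region beside KO-higher H3K27ac. Of 8 WT-higher H3K4me1 regions at Kcnh1, 1 was a member. Irx3, a homeobox gene, had 3 members within 1648 bp around a single H3K27ac region with a fold of 2.43, and WT-higher H3K9ac lay within 1 kb of all 3.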
